A study of Mus musculus with 12 samples.

Results

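miR-146a-5p, miR-146b-5p and miR-155-5p are microRNAs (miRNAs) linked to NF-κB, the transcription factor of Toll-like receptor and cytokine signalling. The 3 members, mmu-miR-146a-5p, mmu-miR-146b-5p and mmu-miR-155-5p in full, were chosen by name out of 1978 mouse miRNA entries in the count table. Of those entries, 501 had a count in some library. The material was small RNA of extracellular vesicles, the membrane particles that cells release, collected from cultured bone marrow mesenchymal stem cells of C57BL/6 mice. Mesenchymal stem cells are stromal progenitors of bone, cartilage and fat cells. The libraries fell into 4 groups named PLL, NY, aFM and DZ. Each group had replicates A, B and C. All 12 libraries carry the same strain, tissue, cell type and antigen treatment labels, so DZ too is labelled as treated. The design text names hydatid antigen preparations called ESPs, HCF and pLL, given at 2 µg/ml for 48 h. It does not explain the names DZ, aFM and NY; only PLL matches one of the preparations by name. No label names an unstimulated group, so DZ served only as a common reference. Whether replicates were separate cultures or animals is not in the labels, so the p-values below reflect the spread of these libraries and that spread may be technical.

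NF-κB drives the genes of miR-146a and miR-155 when cells sense microbial products or cytokines. miR-146a and miR-146b then restrain the same pathway by targeting its adaptors Traf6 and Irak1, which relay signals from Toll-like and interleukin-1 receptors. miR-155 works mostly the other way in immune cells: it targets Socs1, an inhibitor of cytokine signalling, and Inpp5d (SHIP1), a phosphatase that damps immune receptor signalling. A miRNA finds its targets mainly through its seed, bases 2 to 8 from its 5′ end.

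The mature sequences are shown because they decide what can be told apart in the counts. They are from RefSeq (GRCm38.p6), 5′ to 3′, with the seed in capitals.
miR-146a-5p: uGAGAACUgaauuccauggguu
miR-146b-5p: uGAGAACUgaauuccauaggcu
miR-155-5p: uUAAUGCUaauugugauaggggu
The miR-146 pair carried the same seed, GAGAACU, and no other entry among 1679 mature mouse miRNAs in the RefSeq table had it. The seed of miR-155-5p, UAAUGCU, was found in miR-155-5p alone. The pair was identical over the first 17 bases and at 20 of 22 bases in all. Counted from the 5′ end, miR-146b-5p differed from miR-146a-5p by G18A and U21C. Reads that end before base 18 could belong to either miRNA, and how the authors' counting placed such reads is not given in the sources used here. The split between the pair is therefore less certain than their sum.

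The precursor hairpins show where the mature strands lie, with the 5p arm in capitals.
Mir146: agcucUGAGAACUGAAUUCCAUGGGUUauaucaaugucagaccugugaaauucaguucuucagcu
Mir146b: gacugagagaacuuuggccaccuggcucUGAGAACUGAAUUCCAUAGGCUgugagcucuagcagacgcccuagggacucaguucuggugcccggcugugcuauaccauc
Mir155: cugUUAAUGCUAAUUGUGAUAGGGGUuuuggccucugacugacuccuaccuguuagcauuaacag
In GRCm38, the gene Mir146 of miR-146a lies at chr11:43374397-43374461 on the minus strand, and the GENCODE annotation places no other gene over it. Mir146b lies at chr19:46342762-46342870 on the plus strand, within the protein-coding gene Mfsd13a on the same strand and outside its exons. Mir155 lies at chr16:84714140-84714204 on the plus strand, within exon 2 of the long noncoding RNA gene Mir155hg. The 3 genes are thus on different chromosomes. All counts came from the 5p arms. miR-146a-3p, miR-146b-3p and miR-155-3p had 0 counts in the 12 libraries together. Against the 3 counts that a count of 0 allows over all libraries, the 5p arm was at least 150-fold higher for miR-146a, at least 143-fold higher for miR-146b and at least 18-fold higher for miR-155.

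The known targets carry complements of these seeds in the longest annotated 3′ UTR (GENCODE, GRCm38), shown here as background to what the seeds recognise, with the complement in capitals. For the miR-146 seed the motif searched was AGTTCTC, on the transcript strand.
Traf6: tctggtgttgAGTTCTCatttagttga
Irak1: cagaggtcaaAGTTCTCatgcttggaa
Traf6 held 4 such matches and Irak1 held 2. For miR-155-5p the motif was AGCATTA.
Socs1: gctgtgccgcAGCATTAagtgggggcg
Inpp5d: gtttttaaaaAGCATTAaagaaaacca
Socs1 and Inpp5d held 1 match each. Among the longest 3′ UTRs of 21047 genes, 11.1% held AGTTCTC and 8.26% held AGCATTA, over UTRs with a median length of 956 bases. These genes were picked as textbook targets, so the matches are a description, and no target level was measured in these libraries.

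Library totals ran from 68647 to 214303 counts, of which 17607 to 60436 fell on named miRNAs, called annotated counts here. Levels are given as CPM, annotated counts brought to a common library size and scaled with TMM factors, which align libraries on the miRNAs that differ least. The annotated share of all counts was 29.2% to 60.7% in the PLL libraries and 10.3% to 30.6% in the others, the rest falling on predicted loci without a miRNA name. PLL replicate A stood apart from its group, with chi-square per degree of freedom of 99.2 and 87.3 against the other PLL libraries and at most 29.1 within any other pair of replicates. All 8 mesenchymal marker miRNAs were detected, at 143714 to 235141 CPM in sum. The 4 leukocyte markers summed to 1571 to 3767 CPM and the 3 erythroid markers to 46852 to 137122 CPM, so miRNAs of blood lineages were counted in these libraries too. Their source was not tested. CPM is relative to the other annotated counts of a library, so a lower level need not mean a lower amount. A lower amount can come from fewer vesicles that carry a miRNA or from less of it per vesicle, and the counts cannot tell these apart.

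miR-146a-5p and miR-146b-5p ranked in the upper part of the detected miRNAs, though each was a small part of the annotated counts. miR-155-5p had few counts. By mean CPM over the 12 libraries, miR-146a-5p ranked 67 and miR-146b-5p 72 among 501 detected miRNAs, and miR-155-5p ranked 165. In no library did miR-146a-5p exceed 0.290% or miR-146b-5p 0.360% of annotated counts. In all, miR-146a-5p had 451 counts and miR-146b-5p 428, each present in all 12 libraries. miR-155-5p had 54 counts in 9 libraries. The filter on low counts left 132 miRNAs to test, among them both miR-146 members and not miR-155-5p.

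**Figure D1:**
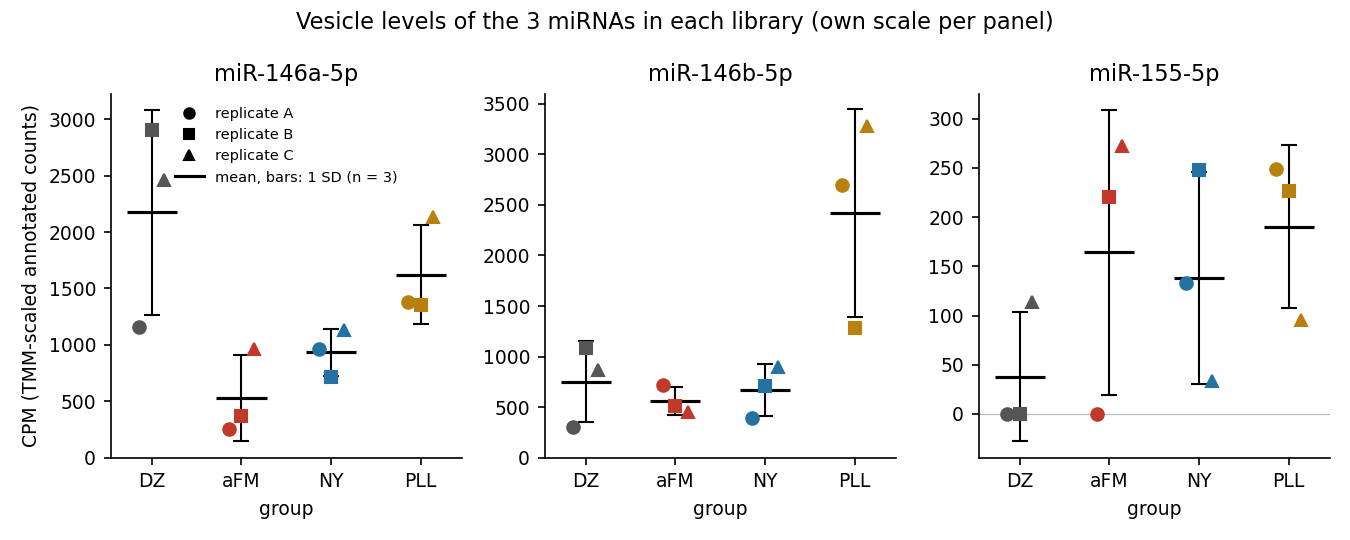
Level of each miRNA in CPM (y axis, own scale per panel) in the 12 libraries by group (x axis); points are libraries, shaped by replicate, horizontal lines are group means and bars 1 SD (n = 3). miR-146a-5p is lowest in aFM, miR-146b-5p is highest in PLL, where every library lies above every other library, and miR-155-5p is at 0 in 3 libraries.

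miR-146a-5p, the main feedback brake on Traf6 and Irak1, was highest in DZ and lowest in aFM. DZ replicates A, B and C held 1158, 2902 and 2463 CPM, from 19, 51 and 65 counts. The aFM libraries held 253, 368 and 967 CPM, from 6, 10 and 32 counts. Every aFM library lay below every DZ library, although DZ replicate A and aFM replicate C came close. This separation depended on the TMM factors. With annotated totals in their place DZ replicate A stood at 1038 CPM and aFM replicate C at 1081 CPM, so these groups overlapped. The NY libraries held 961, 714 and 1131 CPM, all below the lowest DZ library, NY replicate C only slightly. On annotated totals NY replicate C stood at 1203 CPM, above DZ replicate A. The PLL libraries held 1381, 1356 and 2132 CPM, within the range of DZ and above all NY and aFM libraries. That too depended on the TMM factors, as PLL replicate A stood at 1009 CPM on annotated totals. This was below NY replicate C, aFM replicate C and DZ replicate A.

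miR-146a-5p was 4.01-fold lower in aFM than in DZ, at 529 ± 383 against 2174 ± 907 CPM (SD, n = 3). The log2 fold change was -2.00 ± 0.50 (SE; edgeR quasi-likelihood test, adjusted p = 0.0311). This comparison called 18.9% of the 132 miRNAs tested, and in 34.1% of them the libraries of the groups did not overlap, so neither the call nor the separation sets miR-146a-5p apart from the background. The call did not hold without DZ replicate B (adjusted p = 0.0995), DZ replicate C (0.0513), aFM replicate A (0.0955) or aFM replicate B (0.0883), while the direction held whichever library was left out (log2 fold change -2.90 to -1.74). It did not hold either with annotated totals in place of TMM factors (adjusted p = 0.0571), with all rows of the table in the fit (0.0799) or with only the aFM and DZ libraries in the fit (0.0574). The summed leukocyte markers were 3145 to 3719 CPM in DZ and 1571 to 2427 CPM in aFM, and most of the sum was miR-142a-5p, with 193 counts in DZ and 143 in aFM. Of the other leukocyte markers, miR-223-3p had 6 and 4 counts, while miR-150-5p, with 4 and 12, and miR-142a-3p, with 0 and 6, had more in aFM. The summed mesenchymal markers, 8 of 8 detected in both, were 189252 to 215937 CPM in DZ and 149850 to 160628 CPM in aFM. Most of that sum was miR-21a-5p, at a mean of 106178 and 70872 CPM, and miR-143-3p, with 4820 and 6127 pooled counts. Pooled counts, not scaled for depth, were 28 and 2 for miR-145a-5p, 93 and 72 for miR-145a-3p and 382 and 368 for miR-140-3p. They were 290 and 383 for miR-199a-3p, 75 and 100 for miR-199a-5p and 19 and 40 for miR-214-3p. The summed endothelial markers, 2 of 2 detected in both, went the other way without overlap, at 493 to 1423 CPM in DZ and 4623 to 5147 CPM in aFM. Nearly all of that sum was miR-126a-3p, with 44 counts in DZ and 403 in aFM, while miR-126a-5p had 4 and 5. The summed erythroid markers overlapped, at 61346 to 137122 CPM in DZ and 47925 to 81658 CPM in aFM, as did the epithelial markers, at 549 to 1195 and 295 to 665 CPM. The part of these lineages in the result was not tested.

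The other differences of miR-146a-5p did not pass the threshold. In NY, at 935 ± 210 CPM (SD, n = 3), the log2 fold change against DZ was -1.22 (95% interval -2.28 to -0.16, edgeR adjusted p = 0.247). The TMM-scaled libraries did not overlap, as was so for 15.9% of miRNAs tested in that comparison, which called 0.758% of them. In PLL, at 1623 ± 441 CPM (SD, n = 3), it was -0.43 against DZ (-1.45 to 0.59, adjusted p = 0.547), and 0.81 with all rows of the table in the fit, so that its sign depends on the scaling. Between PLL and aFM the log2 fold change was 1.57 ± 0.50 (SE, edgeR adjusted p = 0.0706), with no overlap of the TMM-scaled libraries, as for 38.6% of miRNAs tested. That difference passed with DESeq2 (adjusted p = 0.0498), with all rows in the fit (0.0106), with the replicate letter as a block (0.0421) and without aFM replicate C (0.0452). NY against aFM gave 0.78 (-0.31 to 1.88, adjusted p = 0.354) and PLL against NY 0.79 (-0.25 to 1.83, adjusted p = 0.315). In the order DZ, PLL, NY, aFM, no difference between neighbours passed the threshold. The TMM-scaled libraries of PLL and NY did not overlap, as was so for 31.8% of miRNAs tested. The joint test of any difference among the 4 groups gave an adjusted p of 0.0531, just outside the threshold that 12.1% of miRNAs passed. It passed in 5 of 8 other settings, with upper quartile factors (0.0436), all rows (0.0216), no filter (0.0122), DESeq2 (0.0125) and the replicate block (0.0449), and also without DZ replicate A (0.0291) or aFM replicate C (0.0183).

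miR-146b-5p, encoded on another chromosome with the same seed, was highest in PLL. The PLL libraries held 2695, 1281 and 3277 CPM, from 119, 51 and 103 counts. The DZ libraries held 305, 1081 and 871 CPM, from 5, 19 and 23 counts. All 3 PLL libraries exceeded every library of the other groups, and PLL replicate B was the one near them. The aFM libraries held 717, 515 and 453 CPM and the NY libraries 398, 714 and 898 CPM. These overlapped with each other and with DZ.

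miR-146b-5p was 4.30-fold higher in PLL than in aFM, at 2418 ± 1027 against 562 ± 138 CPM (SD, n = 3; log2 fold change 2.10 ± 0.50, SE, edgeR adjusted p = 0.0205). It was 3.59-fold higher in PLL than in NY, where it stood at 670 ± 253 CPM (1.84 ± 0.49, adjusted p = 0.0404). PLL against aFM called 9.09% of the 132 miRNAs and PLL against NY 6.82%. The libraries did not overlap for 38.6% and 31.8% of them. Both comparisons share the PLL libraries and are not independent. Against DZ, at 752 ± 402 CPM (SD, n = 3), the log2 fold change of 1.66 ± 0.50 did not pass (adjusted p = 0.0647). That comparison called 3.79% of miRNAs and separated the libraries of 21.2%. It passed with DESeq2 (adjusted p = 0.0323), with all rows in the fit (0.0156) and without PLL replicate B (0.0422). The joint test over the 4 groups passed (adjusted p = 0.0278).

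The PLL against aFM difference held under all 9 other settings tried, with a log2 fold change of 4.13 with all rows in the fit, but failed without PLL replicate C (adjusted p = 0.0865) and without any 1 of the aFM replicates (0.0713 for A, 0.122 for B and 0.137 for C). PLL against NY held when PLL replicate B or any DZ library was left out, and was lost with each of the other 8. Its adjusted p rose to 0.0524, 0.0602 and 0.0623 when aFM replicate A, B or C was dropped. Dropping NY replicate A, B or C gave 0.204, 0.135 and 0.0715, and dropping PLL replicate A or C gave 0.0821 and 0.106. It did not hold with the replicate block (adjusted p = 0.0691) or with only the PLL and NY libraries in the fit (0.0820) either, and its log2 fold change was 3.23 with all rows in the fit. That setting shifted the median annotated miRNA by 1.85 in PLL against aFM and 1.29 in PLL against NY. The joint test was lost when NY replicate A (adjusted p = 0.0516), PLL replicate A (0.0552), PLL replicate C (0.0944) or an aFM replicate (0.0546 for A, 0.0765 for B, 0.0828 for C) was dropped. The annotated share of counts, higher in PLL as given above, moved with this result. The summed endothelial markers were 1698 to 2323 CPM in PLL, above NY at 365 to 865 CPM, where miR-126a-5p was at 0 counts, and below aFM at 4623 to 5147 CPM, with no overlap in either case. Nearly all of this was miR-126a-3p, with 223 counts in PLL, 53 in NY and 403 in aFM, beside 1, 0 and 5 of miR-126a-5p. The 4 leukocyte markers summed to 2083 to 3767 CPM in PLL, 2162 to 3414 CPM in NY and 1571 to 2427 CPM in aFM, with miR-142a-3p at 17, 0 and 6 counts. The mesenchymal, erythroid and epithelial sums of PLL overlapped those of NY and aFM. Single mesenchymal markers varied within their sum. Pooled counts in PLL, NY and aFM, not scaled for depth, were 4783, 523 and 368 for miR-140-3p and 1224, 516 and 383 for miR-199a-3p. They were 282, 147 and 100 for miR-199a-5p, 49, 26 and 40 for miR-214-3p and 31, 10 and 2 for miR-145a-5p. For miR-143-3p they were 4220, 7544 and 6127, for miR-21a-5p 10110, 11003 and 5957 and for miR-145a-3p 78, 102 and 72. The part of these in the result was not tested.

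Among aFM, NY and DZ, miR-146b-5p did not differ detectably at this depth. The log2 fold change was -0.44 in aFM against DZ (95% interval -1.58 to 0.69, adjusted p = 0.733), -0.18 in NY against DZ (-1.29 to 0.93, adjusted p = 0.984) and 0.26 in NY against aFM (-0.85 to 1.37, adjusted p = 0.822). NY against aFM called 3.79% of miRNAs. The intervals span more than a doubling in some direction, so equal levels are not shown. In the order PLL, DZ, NY, aFM, none of the neighbours differed past the threshold.

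**Figure D2:**
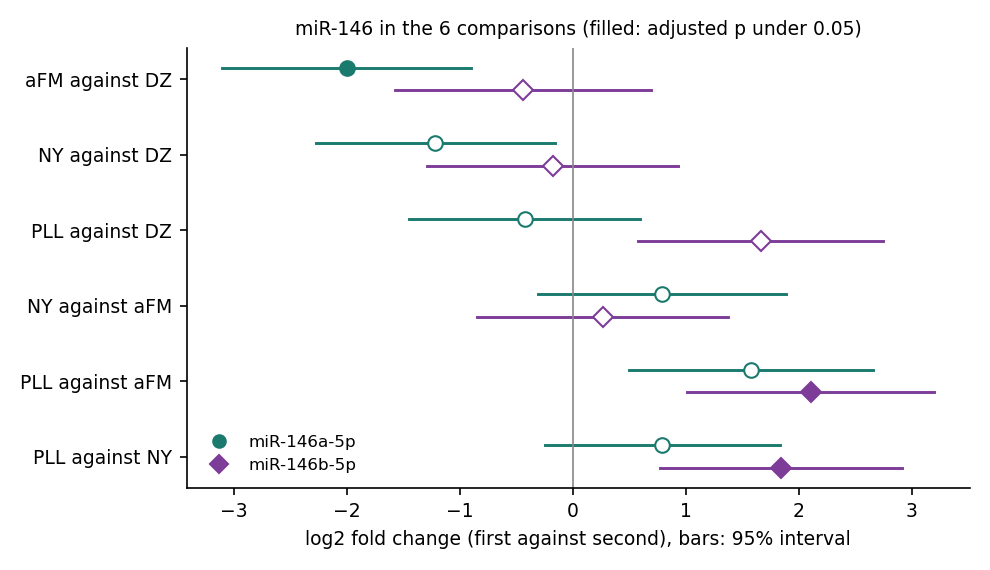
log2 fold change (x axis) of miR-146a-5p (circles) and miR-146b-5p (diamonds) in the 6 comparisons (y axis), first group against second, with 95% intervals from the quasi-likelihood fit; filled symbols have an adjusted p under 0.05. The filled symbols are miR-146a-5p in aFM against DZ (-2.00) and miR-146b-5p in PLL against aFM (2.10) and against NY (1.84).

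The balance within the pair can be read inside each library, where library size and scaling cancel. In DZ, miR-146b-5p made up 20.8%, 27.1% and 26.1% of the counts of both miRNAs in replicates A, B and C. In aFM it made up 73.9%, 58.3% and 31.9%. In NY it made up 29.3%, 50.0% and 44.3%, and in PLL 66.1%, 48.6% and 60.6%. Every DZ library lay below every library of the other groups, although aFM replicate C and NY replicate A came close to them. The counts behind a share ranged from 23 of both miRNAs in aFM replicate A to 180 in PLL replicate A. The exact 95% binomial (Clopper-Pearson) interval was 51.6% to 89.8% in the former and 58.7% to 73.0% in the latter, which covers counting error only.

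The share of miR-146b-5p averaged 24.7% ± 3.39 in DZ (SD, n = 3 here and below), against 58.4% ± 8.97 in PLL, 54.7% ± 21.2 in aFM and 41.2% ± 10.7 in NY. It differed among the 4 groups in an exact permutation test of the Kruskal-Wallis statistic (p = 0.0234, and 0.0234 adjusted over the 2 quantities tested in this way). In that test the balance of the pair, and not only its level, differed between groups. Against DZ the share was 30.0 percentage points higher in aFM, 16.5 in NY and 33.7 in PLL, each without overlap. Their exact permutation p was 0.1 in each case, the lowest that groups of 3 libraries can reach (0.2 adjusted over 6 pairs). The other pairs overlapped, with exact p from 0.2 to 0.8. The joint p was 0.0781 without DZ replicate A, B or C and 0.0569 without NY replicate A. In aFM the pooled counts, 46 of 94, gave 48.9%. Reads placed in the wrong member of the pair would enter this share, and their part was not tested.

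**Figure D3:**
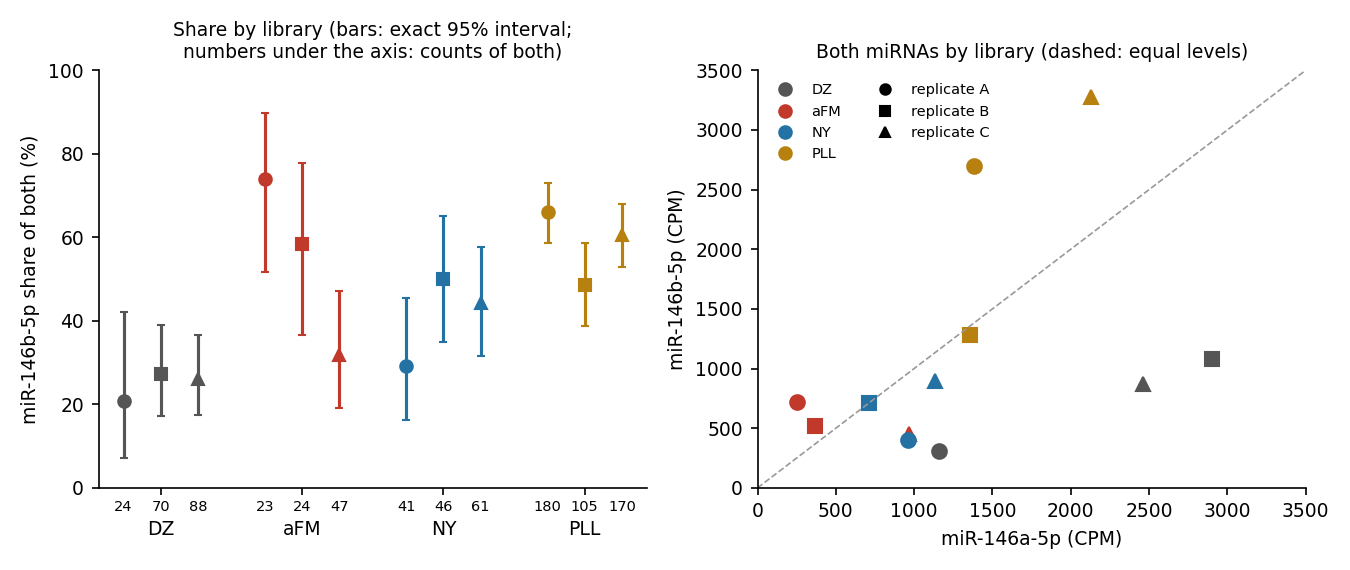
Left, share of miR-146b-5p in the counts of both miR-146 miRNAs (y axis, %) by library, with exact 95% binomial intervals and the counts of both under the axis; right, miR-146b-5p against miR-146a-5p in CPM, with a dashed line of equal levels. The 3 DZ libraries sit at 20.8% to 27.1%, below all others, and to the right of the dashed line, while PLL replicates A and C lie above it.

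The level of the shared seed, the sum of both miRNAs, was highest in PLL and lowest in aFM. The PLL libraries held 4076, 2637 and 5409 CPM, the DZ libraries 1463, 3983 and 3334 CPM, the NY libraries 1359, 1427 and 2029 CPM and the aFM libraries 970, 882 and 1420 CPM. PLL and aFM did not overlap, nor did PLL and NY or aFM and DZ, where DZ replicate A exceeded aFM replicate C only slightly. On annotated totals without TMM factors DZ replicate A held 1312 CPM and aFM replicate C 1588 CPM, so aFM and DZ overlapped. PLL stayed apart from aFM and NY on those totals. The sum was 4041 ± 1386 CPM in PLL, 2927 ± 1308 in DZ, 1605 ± 368 in NY and 1091 ± 289 in aFM (SD, n = 3). It differed among the groups in the exact permutation test (p = 0.00688, adjusted over 2 quantities 0.0138). With annotated totals in place of TMM factors the exact p was 0.0745. The 3 pairs without overlap in TMM-scaled CPM had the lowest reachable exact permutation p of 0.1 (0.2 adjusted over 6 pairs). PLL and DZ overlapped in this sum (exact permutation p = 0.4). It was made up of 182 counts of miR-146a-5p and 273 of miR-146b-5p in PLL, and of 135 and 47 in DZ.

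miR-155-5p, which restrains Socs1 and Inpp5d, was near the detection limit. The DZ libraries held 0, 0 and 3 counts, the aFM libraries 0, 6 and 9, the NY libraries 4, 8 and 1 and the PLL libraries 11, 9 and 3. That is 0, 0 and 114 CPM in DZ, 0, 221 and 272 CPM in aFM, 133, 248 and 33.3 CPM in NY and 249, 226 and 95.4 CPM in PLL. The groups overlapped throughout. A count of 0 allows up to 183 CPM in DZ replicate A, 171 CPM in DZ replicate B and 127 CPM in aFM replicate A, limits that lie above the level of DZ replicate C. Pooled over its libraries, PLL held 23 counts and DZ 3, which scaled to a ratio of 4.01 with an exact 95% counting interval of 1.21 to 20.9. The ratio to DZ was 3.59 in aFM (1.02 to 19.4) and 2.83 in NY (0.777 to 15.5). These intervals pool the libraries of a group and leave out the spread between them.

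In the fit without the filter, which tested 501 miRNAs, miR-155-5p passed in no comparison. Its log2 fold change was 1.88 ± 1.27 in PLL against DZ (SE; edgeR adjusted p = 0.669), 1.86 ± 1.29 in aFM (adjusted p = 0.758) and 1.44 ± 1.30 in NY (adjusted p = 0.828). PLL against aFM gave 0.011 ± 1.08, NY against aFM -0.42 ± 1.11 and PLL against NY 0.43 ± 1.09. None of the 6 had an unadjusted p under 0.05, the lowest being 0.141. The joint test gave an adjusted p of 0.807. With SEs above 1 on the log2 scale, a change of several-fold was not detectable at this depth.

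Other miRNAs linked to NF-κB signalling came from a list of 14, of which 7 had enough counts to test. The list came from general knowledge, with earlier results of these data known. Its calls therefore describe these libraries and are not an independent test of such miRNAs. miR-9-5p, induced by Toll-like receptor signals in myeloid cells and known to target Nfkb1, and miR-21a-5p, induced by NF-κB and other inflammatory factors, were the members that passed in some comparison. miR-9-5p passed in all 6, with 107716 ± 19779 CPM in PLL, 33364 ± 2996 in aFM, 7503 ± 616 in NY and 326 ± 253 in DZ (SD, n = 3). Its order of levels was unlike that of both miR-146 members, since aFM stood second for miR-9-5p and last for each of them. miR-21a-5p was lower in aFM than in DZ (log2 fold change -0.58, edgeR adjusted p = 0.0415) and higher in NY than in aFM (0.74, adjusted p = 0.0270). It shared with miR-146a-5p the lower level in aFM than in DZ. miR-10a-5p, miR-125a-5p, miR-125b-5p, miR-199a-5p and let-7i-5p passed in none of the 6 nor in the joint test.

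By comparison, 1 of the 7 rose and 1 fell in aFM against DZ, where 18.9% of all 132 miRNAs were called. In NY against aFM, where 3.79% were called, 1 rose and 1 fell. In each of the other 4 comparisons 1 rose and 0 fell, miR-9-5p in every case, beside 0.758% called in NY against DZ, 3.79% in PLL against DZ, 9.09% in PLL against aFM and 6.82% in PLL against NY. The median log2 fold change of the 7 was 0.052 in aFM against DZ, beside -0.14 over all 132 tested, and 0.24 in PLL against DZ, beside 0.22. It was 0.39 in NY against DZ, beside 0.022, and 0.42 in NY against aFM, beside 0.18. In PLL it was 0.32 against aFM, beside 0.31, and 0.014 against NY, beside 0.17. Of the 7 untested, miR-223-3p, a myeloid miRNA, had 57 counts in all, miR-16-5p 68, miR-181b-5p 58, miR-132-3p 34, miR-31-5p 17, miR-15a-5p 3 and miR-301a-3p 0. miR-155-5p was thus as scarce as several other miRNAs of this list.

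The miRNAs whose levels ran most like miR-146a-5p over the 12 libraries were miR-145a-5p, a smooth muscle miRNA (Spearman's rho 0.80, Pearson's r 0.69 on log2 CPM), miR-185-5p (0.71 and 0.67) and miR-365-2-5p (0.70 and 0.72). The closest, miR-145a-5p, stood at 464 ± 368 CPM in DZ, 275 ± 81.6 in PLL, 107 ± 92.8 in NY and 28.1 ± 48.7 in aFM. It had only 71 counts in all, 28 in DZ, 31 in PLL, 10 in NY and 2 in aFM. Its aFM level lay below the 90.7 to 127 CPM that a count of 0 allows there. miR-185-5p stood at 1852 ± 467 CPM in DZ, 1433 ± 232 in PLL, 953 ± 338 in NY and 746 ± 71.9 in aFM (SD, n = 3). Both had the same order of groups as miR-146a-5p. For miR-146b-5p they were miR-23a-3p (rho 0.78, r 0.83), miR-361-3p (0.70 and 0.73) and miR-186-5p (0.67 and 0.81). The closest, miR-23a-3p, stood at 2905 ± 2120 CPM in PLL, 1150 ± 152 in NY, 930 ± 303 in DZ and 610 ± 139 in aFM (SD, n = 3), so that NY and DZ came in the opposite order to miR-146b-5p. Between the miR-146 members themselves rho was 0.59 and r 0.45, which ranked miR-146b-5p 7th among the miRNAs most like miR-146a-5p. These were picked as the closest of 131 others, and the libraries share groups, depth and scaling factors, so the values describe these libraries only.

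**Figure D4:**
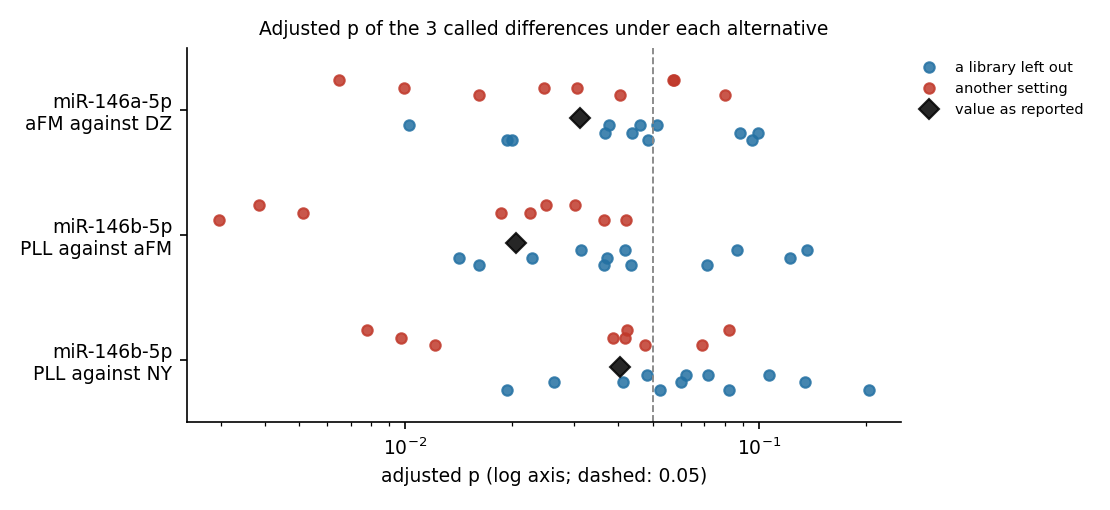
Adjusted p (x axis, log scale, dashed line at 0.05) of the 3 differences that passed, with the reported value as a diamond, each of 12 fits with a library left out in blue and each of 9 other settings in red. Points right of the dashed line did not pass: 4 of 12 for miR-146a-5p in aFM against DZ, 4 of 12 for miR-146b-5p in PLL against aFM and 8 of 12 in PLL against NY, among the fits with a library left out.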

How the data were processed

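The authors deposited 1 table of whole-number counts per row and library, not normalized, as its values show. Per the submitters' processing notes, FastQC, STAR, StringTie and DESeq2 were used with build mm39; their roles, the miRNA caller and the read filtering are not given. The 3509 rows comprised 1978 named mouse miRNAs and 1531 predicted loci. The latter stayed out of library sizes and tests and held 39.3% to 89.7% of a library's counts.

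Tests used edgeR 4.0.16 in R 4.3.3: filterByExpr (minimum count 10, minimum total 15), TMM factors, and one quasi-likelihood fit of all 12 libraries with a term per group. The 6 pairwise tests and the joint test were two-sided; p-values were adjusted by Benjamini-Hochberg over the 132 miRNAs and called under 0.05. CPM uses all annotated counts. The SE of a log2 fold change is its absolute value over the root of F. Shares and sums were tested by exact permutation over libraries. Scripts were tested on simulated data. A count of 0 allows 3 counts, or 67.9 to 183 CPM in a library. log2 CPM for likeness used a prior count of 2.

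The rule named the 3 members, their other arms, listed NF-κB miRNAs past the threshold and the 3 miRNAs most like each tested member by rho. The rest of the NF-κB list and single markers are named outside it, to account for counts. Members and lists were chosen with earlier results of these data known. Target genes were added after the files were seen. Alternatives were RLE, upper quartile or no factors, all rows, no filter, DESeq2 1.42.0, 2 groups only, a replicate block, merged identical rows and each library left out. Deviations of same-letter libraries correlated above 0.1 for all 3 letters in NY with DZ (0.13 to 0.34) and in no other pair of groups. Libraries of unlike letters were not compared and no label states a pairing, so this does not show one.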

Additional observations from a re-analysis of the deposited data

How the results depend on the processing

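No result changed direction past the threshold. With all rows of the table in the fit the median annotated miRNA shifted by 1.49 in PLL against DZ, 1.85 in PLL against aFM and 1.29 in PLL against NY on the log2 scale, and by -0.41 in aFM against DZ. miR-146a-5p in aFM against DZ did not pass with annotated totals (log2 fold change -1.90), all rows (-2.45) or only the 2 groups compared (-1.92), and ran from -2.90 to -1.74 with a library left out. miR-146b-5p in PLL against DZ passed with all rows (3.02) and DESeq2 (1.57), and ran from 1.18 to 1.95 with a library left out. miR-146a-5p in PLL against aFM passed with all rows (3.27), DESeq2 (1.42) and the replicate block (1.70), and ran from 1.12 to 2.28. miR-146b-5p in PLL against NY did not pass with the replicate block (1.86) or only the 2 groups compared (1.58), and ran from 1.42 to 2.07; in PLL against aFM it ran from 1.61 to 2.24. With all rows these were 3.23 and 4.13 (1.84 and 2.10 as reported). The joint adjusted p of miR-146a-5p was 0.0436 with upper quartile factors, 0.0216 with all rows, 0.0122 without a filter, 0.0125 with DESeq2 and 0.0449 with the replicate block, and 0.0183 to 0.134 with a library left out; that of miR-146b-5p was 0.0155 to 0.0944. The exact p was 0.00766 to 0.0781 for the share of miR-146b-5p and 0.00377 to 0.0239 for the summed CPM with a library left out, and 0.0745 for the sum with annotated totals. The causes were not tested. The filter was applied anew when a library was left out, so those fits tested 143 to 147 miRNAs in place of 132. The part of this change in the calls was not tested. For NY against DZ, where same-letter libraries correlated as given above, the replicate block left miR-146a-5p and miR-146b-5p outside the threshold (log2 fold change -1.17 and -0.18).

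The background moved too: the count of miRNAs called over all settings and left-out libraries was 5 to 28 in aFM against DZ (25 as reported), 1 to 7 in NY against DZ (1), 1 to 58 in PLL against DZ (5), 1 to 29 in NY against aFM (5), 4 to 84 in PLL against aFM (12), 5 to 34 in PLL against NY (9) and 9 to 79 in the joint test (16). Depth limits miR-155-5p most, with 0 to 11 counts a library.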
